A study of Mus musculus with 6 samples.

Results

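The 8 cadherin genes described here are Cdh2, Cdh4, Cdh6, Cdh8, Cdh10, Cdh11, Cdh13 and Cdh20. They were taken from the array by matching each probe's RefSeq accession to a gene symbol, which gave 13 of the 39429 probes, and the epithelial genes Cdh1 and Cdh3 and the endothelial gene Cdh5 were left out of the set. RNA was compared between trunks of Arid3b-null mouse embryos and trunks of wild-type embryos at embryonic day 9.5, dissected from the ear vesicle back to somite 15 with the forelimb buds attached. Arid3b encodes a DNA-binding protein with an AT-rich interaction domain, and its loss is the only genotype difference that the labels give. Each group had 3 one-colour Agilent arrays, each with RNA pooled from 4 embryos, so the spread within a group is that between pools. The strain and the structure of the null allele are not given in the sources used here.

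Classical cadherins are calcium-dependent adhesion molecules that bind the same or a related cadherin on the next cell, while their cytoplasmic tail binds p120-catenin and beta-catenin and through alpha-catenin the actin cytoskeleton. Type I members such as Cdh2 (N-cadherin) and Cdh4 (R-cadherin) carry an HAV motif in the outermost domain, and type II members such as Cdh6, Cdh8, Cdh10, Cdh11 and Cdh20 lack it and dock through a pair of tryptophans. Cdh13 (T-cadherin) is atypical, since a lipid anchor holds it in the membrane and it has no cytoplasmic tail. In the embryonic trunk N-cadherin is made by neural tube, somites and heart, Cdh11 by loose mesenchyme, and type II cadherins mark subdivisions of the neural tube, motor pools and the nephric lineage.

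Values are log2 signals relative to the 75th percentile of each array, which lay between 611 and 844 units, and differences are Arid3b-null minus wild type. A probe was tested if all 3 arrays of either group read it well above background, and each gene was represented by its brightest tested probe. Adjusted p-values come from a two-sided limma fit over 19794 genes with Benjamini-Hochberg adjustment and a threshold of 0.05. Arid3b read 0.54, 0.65 and 0.46 in Arid3b-null trunks and 2.18, 2.57 and 1.97 in wild-type trunks, and it fell by 1.69 on the log2 scale (limma adjusted p = 0.00154), and its other 2 probes fell as well, so the arrays follow their labels. The array holds a wide set of differences, with 26.6% of all tested genes called, 13.6% higher and 12.9% lower in Arid3b-null.

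Of the 8 cadherins, 6 could be tested, and of these 2 rose, 1 fell and 3 did not pass. This is to be read against the 26.6% called among all tested genes. By probe, 4 of the 9 tested cadherin probes passed, beside 26.3% of all tested probes. Cdh13 rose 2.68-fold and Cdh6 rose 1.55-fold in Arid3b-null trunks, and Cdh4 fell 1.38-fold. Cdh13 alone of the members was called with a change of 2-fold or more, beside 3.7% of all tested genes called at least 2-fold higher and 2.85% at least 2-fold lower. Cdh2, Cdh8 and Cdh11 did not pass the test, and the probes of Cdh10 and Cdh20 were too dim to be tested. The median log2 difference of the 6 tested members was -0.08, beside -0.04 over all tested genes.

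**Figure D1:**
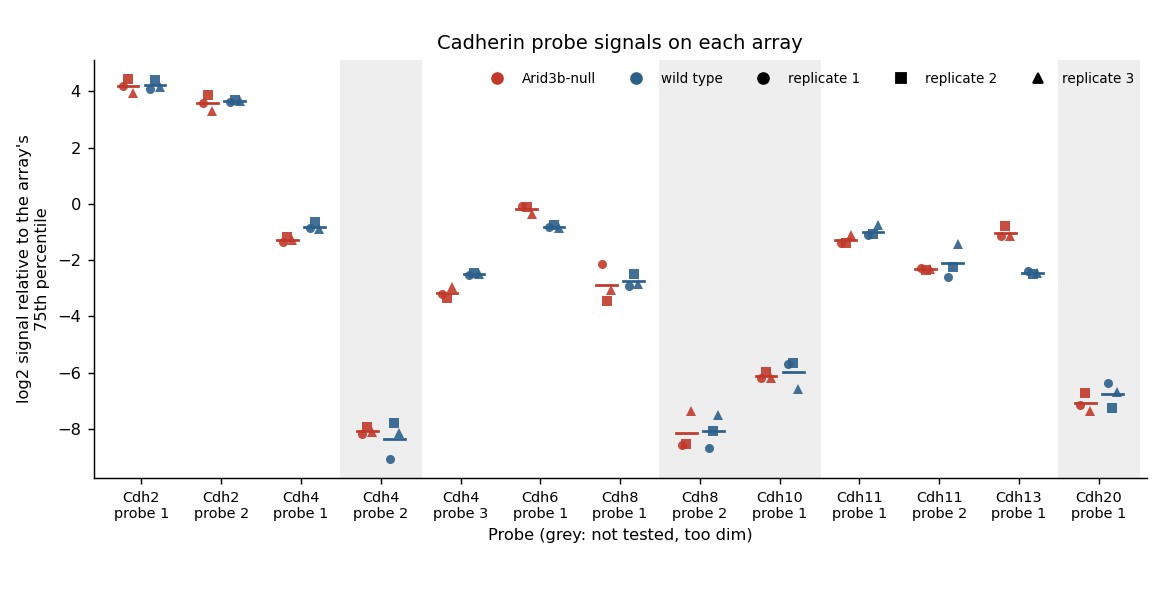
Log2 signal relative to the array's 75th percentile for each of the 13 cadherin probes, Arid3b-null arrays on the left in red and wild-type arrays on the right in blue, with a marker per replicate and a bar at the group mean. The Cdh13 and Cdh6 points of the Arid3b-null arrays lie above all wild-type points, those of both tested Cdh4 probes lie below, and the 4 probes on grey were not tested. Of all tested genes 46.2% had groups that did not overlap.

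Cdh13 had the largest difference of the tested members. Its probe read -1.15, -0.77 and -1.15 in Arid3b-null trunks and -2.40, -2.49 and -2.45 in wild-type trunks. All 3 Arid3b-null arrays stood above all wild-type arrays, and the wild-type arrays lay close together. The groups also did not overlap for 46.2% of all tested genes. The difference was 1.42 ± 0.14 (log2, SE, n = 3 each; limma adjusted p = 0.00132), and within the 3 slides, each of which carried 1 array of each group, it was 1.25, 1.73 and 1.30. T-cadherin is known as a receptor for adiponectin and low-density lipoprotein and in chick as a guidance cue for motor axons. The rise passed without any 1 array, at log2 differences between 1.30 and 1.49. With a normexp background model in place of the scanner's own subtraction, using the median background of each array, the log2 difference was 1.11. With normexp on the unaltered local background it was 0.57 and did not pass (adjusted p = 0.507), as was so for all but 2 of the tested genes.

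Only 1 probe reports Cdh13, so the rise has no second probe beside it. Among the genes whose signals ran closest to those of Cdh13 over the 6 arrays were Phyhd1, Spice1 and F3, each with a Pearson correlation of 0.999. F3 encodes tissue factor, the membrane protein that starts blood clotting, and it rose 2.07-fold. The 6 arrays form 2 groups, so the correlation also holds the difference between groups, and it is given as a description.

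Among the type II members, Cdh6 rose. This cadherin (K-cadherin) is known from the forming kidney and from neural crest and hindbrain. It read -0.07, -0.12 and -0.35 in Arid3b-null trunks and -0.82, -0.76 and -0.86 in wild-type trunks. The groups did not overlap, which was so for 46.2% of all tested genes. The difference was 0.64 ± 0.12 (log2, SE, n = 3 each; limma adjusted p = 0.0102), with 0.76, 0.64 and 0.51 within the slides. It stayed past the threshold without any 1 array (adjusted p from 0.0140 to 0.0438), and it missed the threshold with no filter on dim probes (adjusted p = 0.0508), where 32530 genes were tested.

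Cdh6 is the only called member whose promoter is in the RefSeq promoter table (build GRCm38.p6), which holds 4 of the 8 genes. The 250 bases before its start at chr15:13173676-13173925, minus strand, are printed as the sequence beside the rise, with those of Cdh8 at chr8:99416472-99416721, minus strand, a tested member that did not pass. Both strands were searched for ATTAAA, an AT-rich sequence of the kind that the related protein Arid3a binds, and for ACGTG. The latter is 1 form of the core of the hypoxia response element, and the E-box CACGTG also holds it. The other form, GCGTG, was not searched for. Capitals would mark a match.
Cdh6: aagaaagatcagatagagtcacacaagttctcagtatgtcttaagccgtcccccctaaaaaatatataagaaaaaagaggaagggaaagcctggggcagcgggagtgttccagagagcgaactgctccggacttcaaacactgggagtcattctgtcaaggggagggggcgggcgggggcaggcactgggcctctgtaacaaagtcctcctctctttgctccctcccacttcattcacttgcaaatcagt
Cdh8: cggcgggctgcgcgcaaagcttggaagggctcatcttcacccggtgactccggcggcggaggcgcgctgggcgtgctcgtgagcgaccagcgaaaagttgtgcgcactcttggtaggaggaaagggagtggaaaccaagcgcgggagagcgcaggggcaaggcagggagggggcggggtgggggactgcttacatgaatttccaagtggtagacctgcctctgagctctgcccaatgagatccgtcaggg
Neither window holds ATTAAA or ACGTG, while ATTAAA is in 12.7% and ACGTG in 16.6% of the 32851 promoter windows of this length. The Cdh8 window does hold GCGTG, so a core of the hypoxia response element is not excluded there. The share of windows with GCGTG was not counted. The Cdh20 window holds 1 ATTAAA match and no ACGTG, and the Cdh10 window neither. The share of G and C was 51.2% for Cdh6 and 64.4% for Cdh8, beside a median of 52.4% over all windows.

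Cdh11, a mesenchymal type II cadherin that is also known from bone-forming cells, was lower in each slide on the probe that represents it but did not pass. That probe read -1.38, -1.38 and -1.12 in Arid3b-null trunks and -1.11, -1.08 and -0.75 in wild-type trunks. So the groups just failed to overlap, as did those of 46.2% of all tested genes. The difference was -0.31 ± 0.14 (log2, SE, n = 3 each; limma adjusted p = 0.155), with a 95% interval from -0.66 to 0.03, and it was -0.20 without wild-type replicate 3. The second probe read -2.29, -2.35 and -2.30 in Arid3b-null trunks and -2.59, -2.25 and -1.44 in wild-type trunks. Here the Arid3b-null arrays lay inside the wild-type range, and wild-type replicate 3 alone was high. Its difference of -0.22 turned to 0.11 without that array.

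Cdh8, a type II cadherin of the developing nervous system, had the widest spread of the tested members. It read -2.12, -3.46 and -3.05 in Arid3b-null trunks and -2.94, -2.48 and -2.84 in wild-type trunks. Arid3b-null replicate 1 was the highest of the 6 arrays and Arid3b-null replicate 2 the lowest. The difference was -0.12 ± 0.34 (log2, SE; limma adjusted p = 0.812), its 95% interval ran from -0.92 to 0.67, and the within-slide differences were 0.81, -0.98 and -0.20. The sign turned without Arid3b-null replicate 2 (0.17) or wild-type replicate 2 (0.01) and under normexp with the median background of each array (0.02), so no direction is given for Cdh8. The second Cdh8 probe, for another transcript accession, had 0 arrays well above background.

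Cdh10 and Cdh20, type II cadherins of the nervous system, lay near the limit of detection. Cdh10 read -6.18, -5.98 and -6.21 in Arid3b-null trunks and -5.69, -5.67 and -6.57 in wild-type trunks, and it was well above background on 2 arrays of each group. Cdh20 read -7.16, -6.74 and -7.36 in Arid3b-null trunks and -6.35, -7.27 and -6.68 in wild-type trunks, and it was well above background on 0 Arid3b-null arrays and 1 wild-type array. For both genes the groups overlapped, and neither gives a fold change. In the genome Cdh8 and Cdh11 have no protein-coding gene between them and Cdh6 and Cdh10 have only Cdh9, itself too dim to be tested. Cdh6 rose while its neighbour Cdh10 could not be tested, and neither Cdh8 nor Cdh11 passed.

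Of the type I members, Cdh4 fell. R-cadherin is known from neural tube, retina and the kidney. Its brightest probe read -1.36, -1.18 and -1.27 in Arid3b-null trunks and -0.86, -0.65 and -0.91 in wild-type trunks. The difference was -0.46 ± 0.12 (log2, SE, n = 3 each; limma adjusted p = 0.0299), with -0.50, -0.53 and -0.36 within the slides. Another probe of the same transcript read -3.22, -3.35 and -2.97 in Arid3b-null trunks and -2.54, -2.46 and -2.49 in wild-type trunks, a difference of -0.68 ± 0.13 (log2, SE; limma adjusted p over all probes = 0.0114). On both probes every Arid3b-null array was below every wild-type array, beside 46.2% of all tested genes whose groups did not overlap. The last Cdh4 probe had 0 arrays well above background.

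The call of the brightest Cdh4 probe was near the threshold. It was lost without any 1 of Arid3b-null replicates 1, 2 and 3 or wild-type replicates 1 and 2 (adjusted p = 0.0871, 0.0526, 0.0734, 0.0783 and 0.0849), with arrays scaled to their medians (0.0783) and with no filter on dim probes (0.112). The other tested probe passed without any 1 array (adjusted p from 0.0133 to 0.0394) and was lost with no filter on dim probes (0.0520). In the mean of both tested probes Cdh4 differed by -0.57 (adjusted p = 0.0108). The 4 genes that ran closest to Cdh4 over the 6 arrays were Slx4, E2f7, Bbs1 and Stk11ip, with Pearson correlations of 0.997, 0.996, 0.995 and 0.994, and of these E2f7, a repressor of E2F target genes, and Bbs1, a subunit of the ciliary BBSome, passed the test.

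Cdh2, the broadly expressed N-cadherin, did not pass on either probe. The probe that represents it read 4.20, 4.45 and 3.94 in Arid3b-null trunks and 4.09, 4.41 and 4.17 in wild-type trunks. The other read 3.59, 3.88 and 3.29 in Arid3b-null trunks and 3.61, 3.70 and 3.66 in wild-type trunks. On both probes the Arid3b-null arrays lay on either side of the wild-type mean. The differences were -0.03 ± 0.16 and -0.07 ± 0.16 (log2, SE; limma adjusted p over all probes = 0.919 and 0.773), with 95% intervals from -0.42 to 0.36 and from -0.46 to 0.31. The sign of the first turned under quantile normalization (0.07), in the deposited value table (0.08) and without Arid3b-null replicate 3 (0.10) or wild-type replicate 2 (0.06), so no direction is given for Cdh2.

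**Figure D2:**
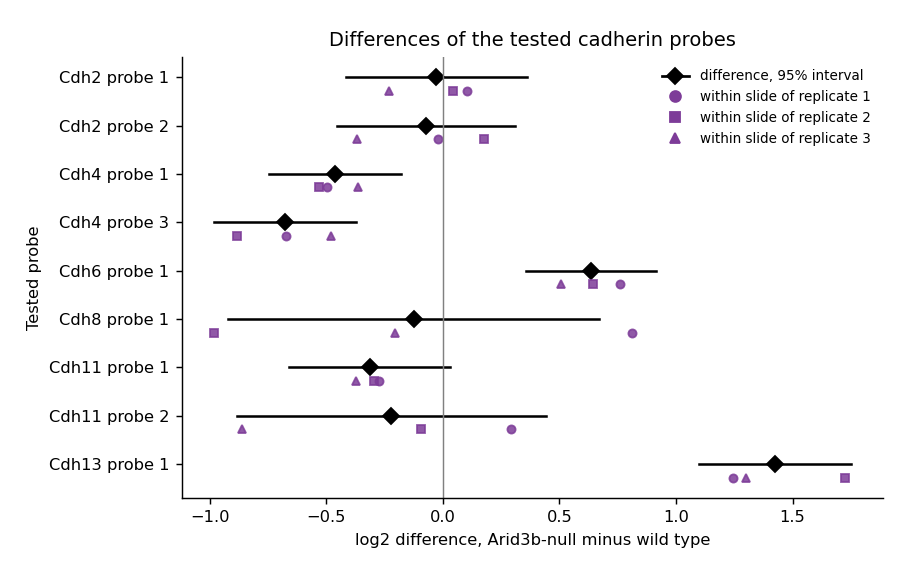
Log2 difference, Arid3b-null minus wild type, of the 9 tested cadherin probes, as diamonds with 95% intervals from limma, and the difference within each of the 3 slides as smaller markers. The intervals of Cdh13, Cdh6 and both Cdh4 probes do not reach 0, and the Cdh8 slides fall on both sides of it.

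The cadherins outside the set were read from the same fit, in which 13.6% of all tested genes were called higher and 12.9% lower. Of the 3 other type I genes Cdh3 (P-cadherin), an epithelial cadherin, rose 1.66-fold (limma adjusted p = 0.0179), a call lost without wild-type replicate 1 (0.0632) and with no filter on dim probes (0.0698), while Cdh1 differed by 0.56 (adjusted p = 0.0552) and Cdh15 by 0.41 (0.0639). Of 8 other type II genes 4 were tested and 0 passed, the largest differences being 0.39 for Cdh22 (adjusted p = 0.296) and -0.22 for Cdh24 (0.403), and 0 reached an unadjusted p under 0.05. Of 19 tested protocadherin, Fat, Dachsous, Celsr and further cadherin genes 3 fell and 0 rose, with a median of -0.19. In the mean of the probes of a gene 3 fell and 1 rose, with a median of -0.03. The median was -0.23 without Arid3b-null replicate 1 and -0.04 without Arid3b-null replicate 2. Celsr3 and Celsr2, cadherins of planar cell polarity and axon growth, fell 2.31-fold and 1.84-fold (limma adjusted p = 0.00132 and 0.00615), and Pcdh8, a protocadherin of the presomitic mesoderm, fell 1.30-fold (0.0439), a call lost with the replicate number as a block (0.0653) and without any 1 array (adjusted p up to 0.132).

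Most of the partner genes of the cadherins did not pass, as was so for all but 26.6% of all tested genes. Of 9 tested catenin genes 2 rose and 1 fell, with a median of 0.03, and Ctnnb1, Ctnna1 and Ctnnd1, which encode beta-, alpha- and p120-catenin, differed by -0.06, -0.03 and 0.03. The neural delta-catenin gene Ctnnd2 rose by 0.59 (log2), the plakoglobin gene Jup by 0.50, and Ctnnal1, an alpha-catenin-like gene, fell by 0.37 (limma adjusted p = 0.0260, 0.0410 and 0.0326). With the replicate number as a block Jup and Ctnnal1 did not pass (0.0637 and 0.0614). Ctnnal1 was also lost without any 1 array (up to 0.112), Jup without any 1 but wild-type replicate 1 (up to 0.105), and Ctnnd2 without Arid3b-null replicates 2 or 3 or wild-type replicates 1 or 2 (up to 0.0919). Jup was well above background on 2 wild-type arrays, and under normexp with the median background of each array it differed by 0.17 and did not pass (0.306). Among 10 nectins and junction adaptors 1 rose, Nectin2, which binds afadin at forming junctions, at 1.57-fold (0.0128, and 0.0532 without wild-type replicate 1). The Nectin2 call was also lost in the mean of the probes of the gene and with no filter on dim probes (up to 0.0657). Among 11 genes for proteases that process or shed cadherins, or for subunits of such a protease, 2 rose. The proprotein convertase gene Pcsk5 rose 1.61-fold (0.0155, and 0.0508 without Arid3b-null replicate 2). The presenilin gene Psen2 rose 1.41-fold (0.0459, and 0.0793 with the block). The Psen2 call was also lost without any 1 array (up to 0.175) and under normexp with the median background of each array (0.0516). Psen2 had no value on wild-type replicate 3, so its wild-type mean rests on 2 arrays. Of 8 Snail, Zeb and Twist family factors and E proteins, several of which repress Cdh1, Snai2 alone rose, 1.67-fold (0.0211), and the median was 0.06. Its call was lost without Arid3b-null replicates 1 or 2 or wild-type replicates 1 or 3 (up to 0.0729).

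**Figure D3:**
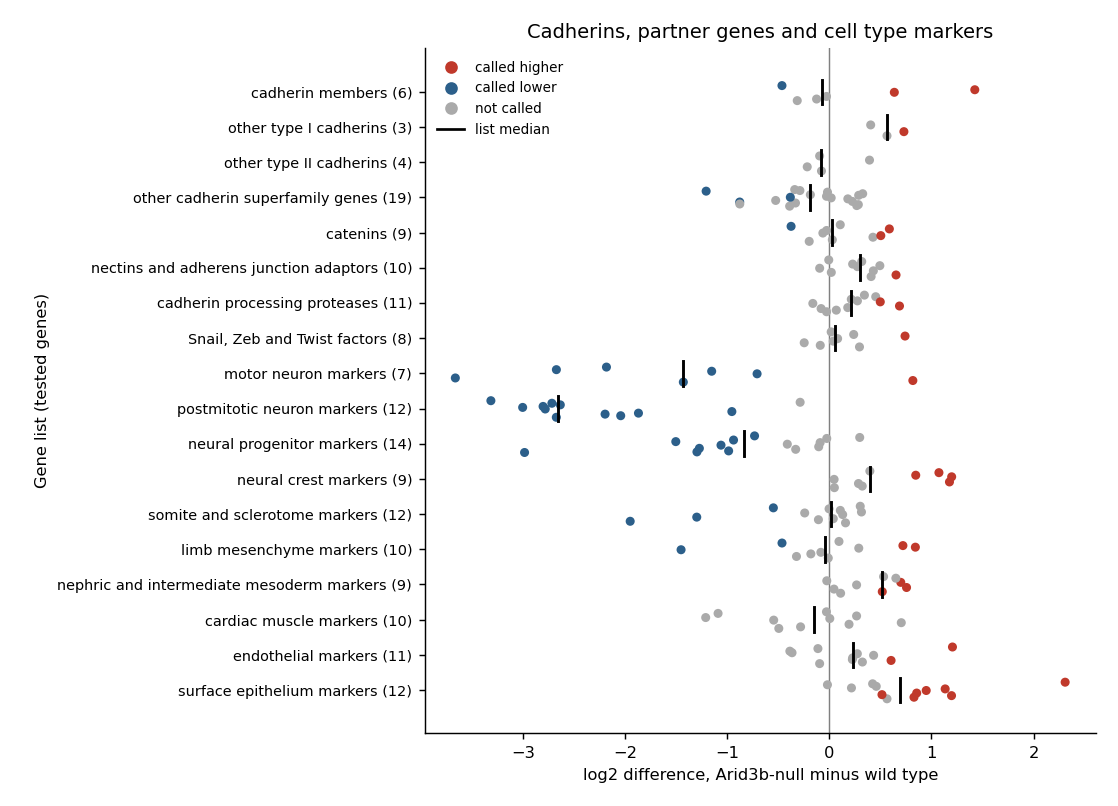
Log2 difference, Arid3b-null minus wild type, of each tested gene in the cadherin set, the partner gene lists and the cell type marker lists, with the number tested in brackets. Red points were called higher and blue points lower, grey points were not called, and the bar is the median, which was -2.65 for postmitotic neuron markers and 0.70 for surface epithelium markers.

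Several cell types that make cadherins differed in their markers, and in whole trunks fewer cells of a type and less RNA per cell cannot be told apart. Counts of called markers are to be read against 13.6% higher and 12.9% lower among all tested genes. Of 12 tested postmitotic neuron markers 11 fell and 0 rose (median -2.65), and their summed signal, in units of the array's 75th percentile, was 4.77 to 5.57 in Arid3b-null and 14.8 to 17.3 in wild type. Ina and Nefl, which encode neuronal intermediate filaments, fell 6.87-fold and 4.12-fold, and the RNA-binding protein gene Elavl3 6.97-fold. Motor neuron markers fell in 6 of 7 cases, with Lhx3 12.6-fold, Slc18a3 6.37-fold and Isl2 2.22-fold lower, and 1 rose, the receptor gene Ret, with sums of 0.874 to 1.11 in Arid3b-null and 2.37 to 3.11 in wild type. Neural progenitor markers fell in 8 of 14 cases and 0 rose, with the smallest adjusted p for Fabp7, Dbx1 and Hes5 at 2.83-fold, 7.91-fold and 2.41-fold lower, with sums of 34.3 to 38.9 in Arid3b-null and 69.9 to 74.6 in wild type. The other 6 did not pass. Of these Sox2, Pax6 and Nkx6-2 differed by -0.02, -0.09 and -0.10, Sox1 and Msi1 by -0.33 and -0.41, and Irx3 by 0.30. Under normexp with the median background of each array the falls of Lhx3 and Slc18a3 were 4.80-fold and 3.53-fold. The falls in these marker lists stood beside the fall of Cdh4, Celsr2 and Celsr3, and their part in it was not tested. Cdh8, which neurons also make, did not pass. Its limma interval ran from -0.92 to 0.67 (log2, Arid3b-null minus wild type), so neither a fall nor a rise is excluded. The part of the neuron markers in the Cdh8 signal was not tested.

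Markers of lineages known to make Cdh6 rose in part. Of 9 neural crest markers 4 rose and 0 fell, with sums of 18.7 to 19.9 in Arid3b-null and 13.6 to 15.9 in wild type, with the smallest adjusted p for Tfap2a at 2.26-fold, Foxd3 at 2.10-fold and Erbb3 at 2.29-fold, and with Sox10 the fourth. Erbb3 was well above background on 2 wild-type arrays and at 1.34-fold did not pass under normexp with the median background of each array. Of 9 nephric and intermediate mesoderm markers 3 rose and 0 fell, namely Osr1 at 1.43-fold, Pax8 at 1.69-fold and Gata3 at 1.62-fold, with sums of 3.45 to 4.14 in Arid3b-null and 2.45 to 2.60 in wild type. Pax8 was lost without wild-type replicate 1 (0.0548) and Gata3 without that array (0.0605) or Arid3b-null replicate 2 (0.0511). With no filter on dim probes 0 of these 9 nephric markers were called, and Osr1 missed the threshold there (limma adjusted p = 0.0573). Their median was 0.52, and under normexp with the median background of each array it was 0.19 with 4 called higher. The part of both marker lists in the rise of Cdh6 was not tested. Of 11 endothelial markers, a cell type known to make Cdh13, 2 rose and 0 fell, beside 13.6% higher and 12.9% lower of all tested genes. The 2 that rose were Sox17 at 2.31-fold and Tie1 at 1.52-fold. Their list's sums overlapped at 32.3 to 36.6 in Arid3b-null and 31.4 to 35.6 in wild type. The endothelial cadherin gene Cdh5 differed by -0.09 (adjusted p = 0.661). Tie1 was lost with the block (0.0508) and without Arid3b-null replicates 2 or 3 or wild-type replicates 1 or 3 (up to 0.0902). The part of endothelial cells in the rise of Cdh13 was not tested.

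Markers of mesenchyme, heart and surface epithelium, which make Cdh11, Cdh2 and Cdh3, were read in the same way. Here too 13.6% higher and 12.9% lower among all tested genes stand beside the counts. Of 10 limb mesenchyme markers 2 rose, Fgf10 1.79-fold and Msx1 1.65-fold, and 2 fell, Lhx9 2.73-fold and Lhx2 1.38-fold, with sums of 21.5 to 23.8 in Arid3b-null and 20.0 to 21.5 in wild type, and of 12 somite and sclerotome markers 3 fell, Pax1 3.86-fold, Pax9 2.46-fold and Meox2 1.46-fold, with sums of 19.5 to 22.7 in Arid3b-null and 21.6 to 23.2 in wild type. Lhx2 (limma adjusted p = 0.0460) was lost with the block (0.0536) and without any 1 array (up to 0.140). Meox2 was lost without Arid3b-null replicates 2 or 3 or wild-type replicates 1 or 2 (up to 0.0921). Of 10 cardiac muscle markers 0 passed the limma test and 2 had an unadjusted p under 0.05, with sums spread from 14.7 to 37.3 in Arid3b-null and from 28.3 to 43.8 in wild type. Myl3 differed by -1.09 (adjusted p = 0.0574) and passed with the replicate number as a block (0.0077). Myh6 differed by -1.21 (adjusted p = 0.522), with Arid3b-null replicate 1 far below the other arrays, and by 0.35 without that array, where 2 cardiac markers were called higher and the list's median was 0.28, against -0.15 with all arrays. Of 12 surface epithelium markers 7 rose and 0 fell, with the smallest adjusted p for Krt19 at 4.96-fold, Rab25 at 2.29-fold and Esrp1 at 1.93-fold, with sums of 63.0 to 73.8 in Arid3b-null and 29.9 to 43.9 in wild type, beside the rise of Cdh3, and their part in it was not tested.

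**Figure D4:**
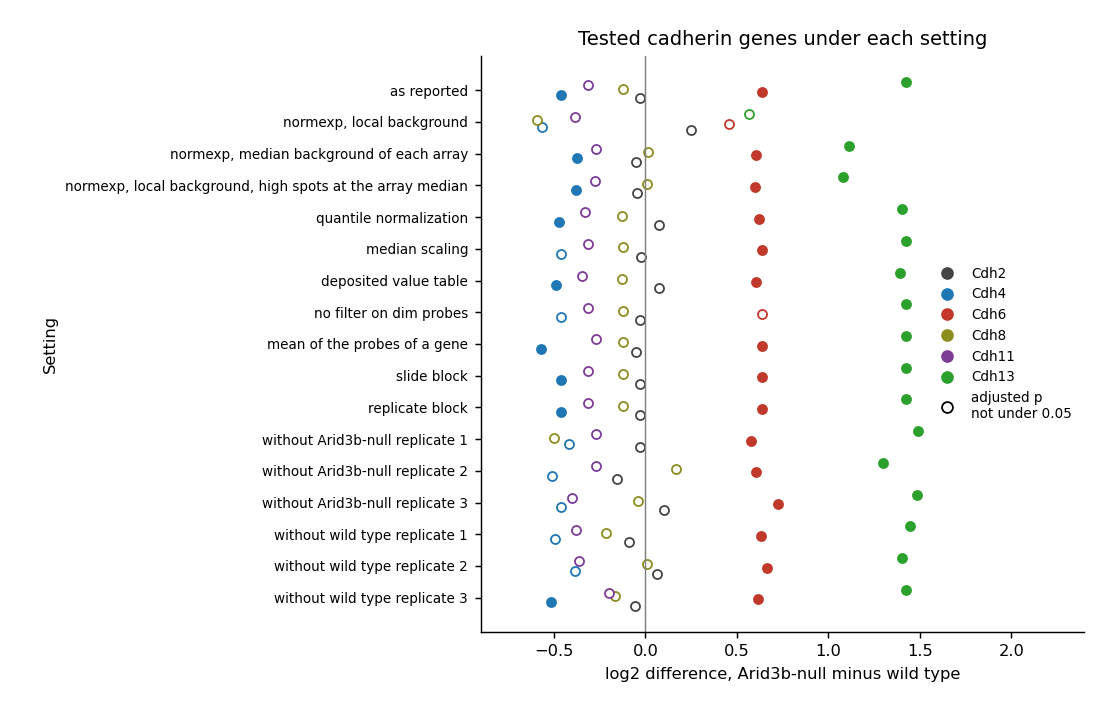
Log2 difference, Arid3b-null minus wild type, of the 6 tested cadherin genes as reported and under each alternative. Filled points passed the threshold and open points did not, and Cdh13 lay between 1.08 and 1.49 in all settings except normexp on the unaltered local background, where it was 0.57 and did not pass.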

How the data were processed

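Per the labels' protocols, total RNA of each pool was amplified and labelled with Cy3. The deposited scanner files hold intensity values from Agilent Feature Extraction 10.7.3.1, per the file headers, which name the mouse build mm9. From its processed signal, which that software had background-subtracted, log2 was taken and the array's 75th percentile subtracted. Spots marked as outliers, 100 to 169 on an array, were dropped before spots of a probe were averaged. The deposited value table holds log2 values of 24181 probes, between-array normalized by a method not given in the sources used here, and served as an alternative. Accessions matched symbols of a GRCm38.p6 RefSeq table for 26424 of 39429 probes, and its promoter sequences are RefSeq's in that build.

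Genes were tested with limma 3.58.1 in R 4.3.3 over 19794 genes (24421 probes), and the fit was checked on simulated data. The simulated noise was independent between arrays, so the check does not cover shared slides. The number of arrays limits the precision. The replicate numbers mark shared slides and scans per the file headers, and deviations from the group means correlated at 0.14, 0.38 and 0.25 within the pairs. The genes named are Arid3b, all members, up to 3 called genes of each list by adjusted p (or the 2 largest differences), and the 4 genes closest to the leading riser and faller, 1 of which is not reported here. Further list genes (Cdh1, Cdh5, Cdh15, Ctnnb1, Ctnna1, Ctnnd1, Ret, Sox1, Sox2, Pax6, Nkx6-2, Irx3, Msi1, Sox10, Lhx2) were added after their values were seen. The members and lists were chosen with earlier results of these data known.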

Additional observations from a re-analysis of the deposited data

How the results depend on the processing

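Of the 15 alternatives apart from normexp on the unaltered local background, Cdh13 passed in 15, Cdh6 in 14 and Cdh4 in 8, each in the reported direction, while Cdh2, Cdh8 and Cdh11 passed in 0. The slide block and the replicate block are the same fit and are both counted. The mean of the probes of a gene repeats the reported difference for Cdh13 and Cdh6. Normexp on the unaltered local background, which shifted the median of all genes to -0.22, called 2 genes higher and 0 lower, and 0 cadherins in either direction, with Cdh13 at 0.57, Cdh6 at 0.46 and Cdh4 at -0.56. When the 30 spots whose local background exceeded 100 units, 20 of them on wild-type replicate 3, were given their array's median background, an alternative chosen after seeing the data, 2062 genes were higher and 2037 lower, and 2 cadherins were higher and 1 lower. Without a filter on dim probes 1288 genes were higher and 998 lower, and 1 cadherin was higher and 0 lower. With median scaling 0 cadherins were lower. Leaving out 1 array gave 1661 to 2047 genes higher and 1203 to 2040 lower, against 2694 and 2562 with all arrays and both lowest without wild-type replicate 1, and 2 cadherins higher and 0 to 1 lower.

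With the replicate number, and so the slide, as a block 2428 genes were higher and 2348 lower, 2 cadherins were higher and 1 lower, and no call of the 6 tested members changed. Of the 37 called list genes that the naming rule gives, 21 kept their call in all 15 alternatives, while Lhx2, named outside that rule, passed in 2 of them. Erbb3, Jup and Pax8 changed sign under normexp on the unaltered local background (-0.61, -0.90 and -0.18). Erbb3, Jup and Psen2 also missed the threshold with the median background of each array (1.34-fold, 1.13-fold and 1.35-fold). The cause of the other lost calls was not tested. Signals of Cdh10 and Cdh20 were too close to background for any statement on a change.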
